A study of Mus musculus with 8 samples.

Results

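RNA from C3H10T1/2 cells was searched for 10 genes of the circadian clock, *Per1*, *Per2*, *Per3*, *Cry1*, *Cry2*, *Arntl* (also called *Bmal1*), *Clock*, *Nr1d1*, *Nr1d2* and *Dbp*. They were chosen by symbol, with earlier results of these data known. All 10 were found among the 18605 genes of the expression table and were among the 13470 with enough counts to be tested. C3H10T1/2 is a mouse mesenchymal stem cell line derived from C3H embryos. Cells carrying a non-target control (NC) and cells carrying a lentiviral shRNA against *Nap1l2* (KD-Nap1l2) were sequenced at day 0, without induction. The induced groups, NC-7d and KD-Nap1l2-7d, had 7 days in osteogenic medium. Each of the 4 groups has 2 libraries. All cells were grown in DMEM with serum, and the osteogenic medium added dexamethasone, a synthetic glucocorticoid, with ascorbic acid and β-glycerol phosphate. The hour of harvest and the time since the last change of medium are not given in the labels or methods, so induction, days in culture and hour of harvest cannot be told apart here. Nothing says whether the 2 libraries of a group came from separate cultures, and p-values measure only the spread between them.

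The mammalian clock is a feedback loop of transcription. ARNTL and CLOCK bind E-boxes as a pair and drive *Per*, *Cry*, *Nr1d1*, *Nr1d2* and *Dbp*. PER and CRY proteins then repress the pair, NR1D1 and NR1D2 repress *Arntl*, and DBP drives genes through D-boxes. Serum and glucocorticoids, dexamethasone among them, are known to set the phase of this loop in cultured cells, and *Per1* is induced by both.

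The shRNA target itself was close to absent. *Nap1l2* had 3 and 3 counts in NC, 2 and 7 in KD-Nap1l2, 15 and 5 in NC-7d and 7 and 13 in KD-Nap1l2-7d. It was not lower in the libraries labelled KD-Nap1l2 on either day, but counts this low can neither show nor exclude a knockdown. The paper reports a knockdown in this cell line by western blot and qPCR. As these counts cannot check it, every direction below is between labels. Library totals ran from 17420284 to 19427359 counts. All 9 mesenchymal markers were detected, with summed FPKM (fragments per kilobase of transcript, scaled to the reads of the library) of 4090 to 8230 per library, while immune, endothelial and epithelial markers summed to at most 5.57, 1.56 and 2.5. KD-Nap1l2 replicate 2 differed from replicate 1 in several clock genes. Induction values without either library are given for each member whose call they change or whose value they move by over 1.5 times. The exception is *Clock*, for which a range is given.

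Short stretches around the transcript starts of the members are shown because the letters that clock factors bind can be read in them. RefSeq promoter windows in GRCm38.p6, from 250 bases before to 50 bases after each transcript start, were given for 9 of the 10 members in 13 windows, with no entry for *Per2*. Both strands were searched for the E-box CACGTG, the E-prime-box CACGTT, the D-box (TTATGTAA or TTACGTAA), the RRE (TAGGTCA or TGGGTCA, bound by NR1D1 and NR1D2), the CRE TGACGTCA and the GRE ACANNNTGT of the glucocorticoid receptor. Capitals mark the matches, and on the opposite strand CACGTT reads AACGTG. Positions count from the first transcribed base, which is 1, and the base before it is -1.
Per1, chr11:69098733-69098838, plus strand, -216 to -111: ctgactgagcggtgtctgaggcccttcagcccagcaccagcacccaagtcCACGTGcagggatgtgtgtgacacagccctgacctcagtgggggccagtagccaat
Per3, chr4:151044766-151044915, minus strand, -250 to -101: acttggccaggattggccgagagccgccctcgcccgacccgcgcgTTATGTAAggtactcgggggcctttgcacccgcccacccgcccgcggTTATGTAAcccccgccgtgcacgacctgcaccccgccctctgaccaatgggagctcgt
Cry1, chr10:85185059-85185183, minus strand, -129 to -5: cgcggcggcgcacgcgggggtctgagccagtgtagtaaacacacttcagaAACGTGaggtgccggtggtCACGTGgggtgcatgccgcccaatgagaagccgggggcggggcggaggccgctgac
Cry2, chr2:92434180-92434285, minus strand, -216 to -111: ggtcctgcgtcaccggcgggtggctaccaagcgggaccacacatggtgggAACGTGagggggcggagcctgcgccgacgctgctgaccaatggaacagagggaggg
Arntl, chr7:113207530-113207559, plus strand, 20 to 49: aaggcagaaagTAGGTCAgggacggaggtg
Nr1d1, chr11:98775378-98775455, minus strand, -78 to -1: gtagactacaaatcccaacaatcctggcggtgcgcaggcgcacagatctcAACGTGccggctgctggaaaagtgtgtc

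The *Per3* window held a D-box at -205 and another at -158, both on the strand of the gene and 47 bases apart, whereas 1.06% of 32851 mouse promoter windows of the same length held any D-box. The *Cry1* window held an E-prime-box at -79 and an E-box at -60. An E-box stood in 2 of the 13 windows, against 7.15% of all windows, and an E-prime-box in 3 of the 13, against 4.68%. The RRE was found in 1 member, *Arntl*, at base 31 of the second of its 2 windows, where 6.45% of all windows held one. A CRE or GRE stood in none of the 13 windows, against 1.79% and 6.85% of all windows, and the windows of *Clock*, *Nr1d2* and *Dbp* held no match. No match overlapped another, and a match is a run of letters, with no binding measured. By GENCODE vM21, the *Per1* stretch lies in an intron of the gene, whose longest form starts further upstream, the *Per3* stretch in an intron of *Camta1* on the same strand, and the *Arntl* stretch in its exon. The last 6 bases of the *Cry1* stretch fall in exon sequence, and those of *Cry2* and *Nr1d1* lie in no annotated gene.

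At day 0 *Nr1d1*, *Dbp* and *Nr1d2* were the most abundant members per length under both labels. *Nr1d1* led in NC at 30.3 ± 5.63 FPKM (SD, n = 2), followed by *Dbp* at 27.1 ± 0.771 and *Nr1d2* at 20.3 ± 0.636. *Per3* at 10.6 ± 0.134, *Per1* at 9.9 ± 3.93 and *Clock* at 9.29 ± 0.0849 came next, and the libraries of *Per1* spanned those of both neighbours. *Cry2* at 5.92 ± 0.714 and *Arntl* at 5.65 ± 1.41 overlapped, and *Cry1* at 4.4 ± 0.156 and *Per2* at 3.27 ± 0.651 were lowest. After induction this order had turned. *Per1* led in NC-7d at 21.6 ± 6.98 FPKM, *Arntl* was next at 12.9 ± 4.26, overlapping *Nr1d1* at 12.7 ± 0.643, and *Per3* was last at 3.47 ± 0.629. In KD-Nap1l2-7d, *Arntl* was first at 24.9 ± 4.07 FPKM and *Per3* last at 2.74 ± 0.332. *Dbp* went from the second place in both day 0 groups to the sixth in both day 7 groups, at 6.58 ± 1.08 and 6.2 ± 0.679 FPKM.

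**Figure D1:**
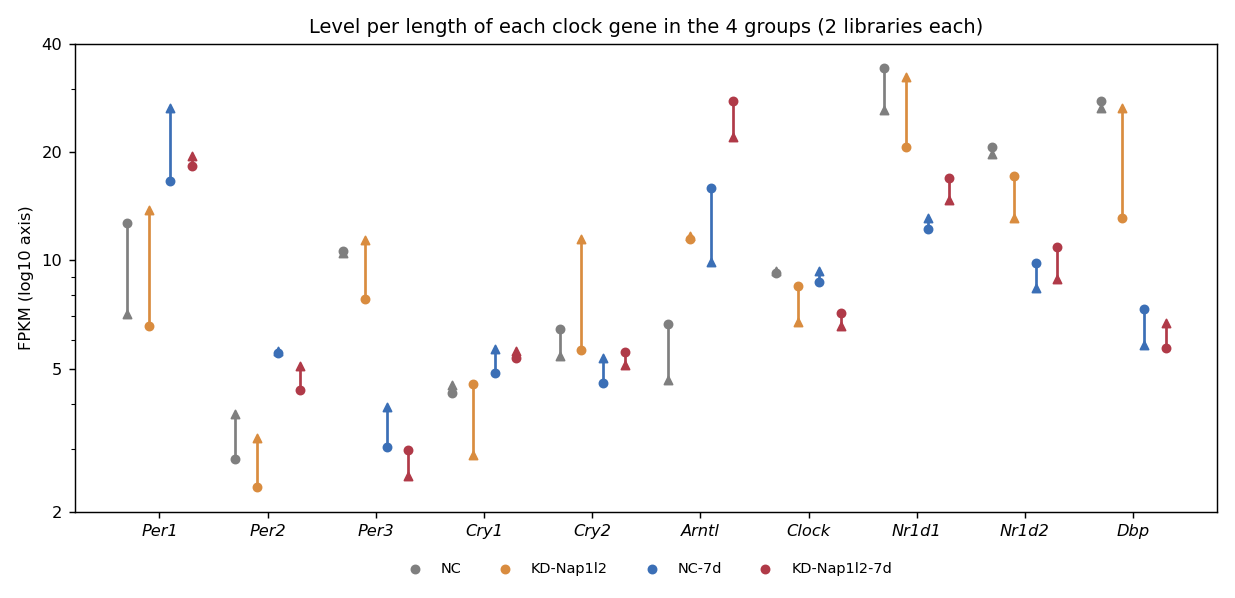
Level per length (FPKM, log10 axis) of each clock gene in the 4 groups, with a circle for replicate 1, a triangle for replicate 2 and a line joining them. *Nr1d1* and *Dbp* are highest in NC, at means of 30.3 and 27.1, and *Arntl* is highest in KD-Nap1l2-7d, at 24.9.

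Osteogenic induction was compared first within each label, which asks how the clock genes differed between day 0 and day 7. In NC-7d against NC, *Arntl*, the activator, rose 2.27-fold, and 4 members fell. *Dbp* fell 4.1-fold, *Per3* 2.97-fold, *Nr1d1* 2.4-fold and *Nr1d2* 2.23-fold. So 5 of 10 members were called at an adjusted p under 0.05 by edgeR's quasi-likelihood test, where 8.21% of all genes tested were called, 4.83% as higher and 3.38% as lower. The libraries of the 2 days did not overlap for 10 of 10 members, as for 57.8% of all genes. In KD-Nap1l2-7d against KD-Nap1l2, 5 members were again called, where 14.2% of all genes were, 6.84% as higher and 7.36% as lower. For 9 members the days did not overlap, as for 61.4% of all genes, and *Clock* was the exception. There *Arntl* rose 2.15-fold and *Per2* 1.71-fold, while *Per3* fell 3.57-fold, *Dbp* 3.2-fold and *Nr1d2* 1.51-fold. *Arntl*, *Per3*, *Nr1d2* and *Dbp* were called in both, and *Per3* and *Dbp* kept both calls in each of the 8 other settings that left out no library of the groups compared. The median log2 fold change of the members was -0.16 and -0.36, that of all genes -0.0035 and -0.0071.

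**Figure D2:**
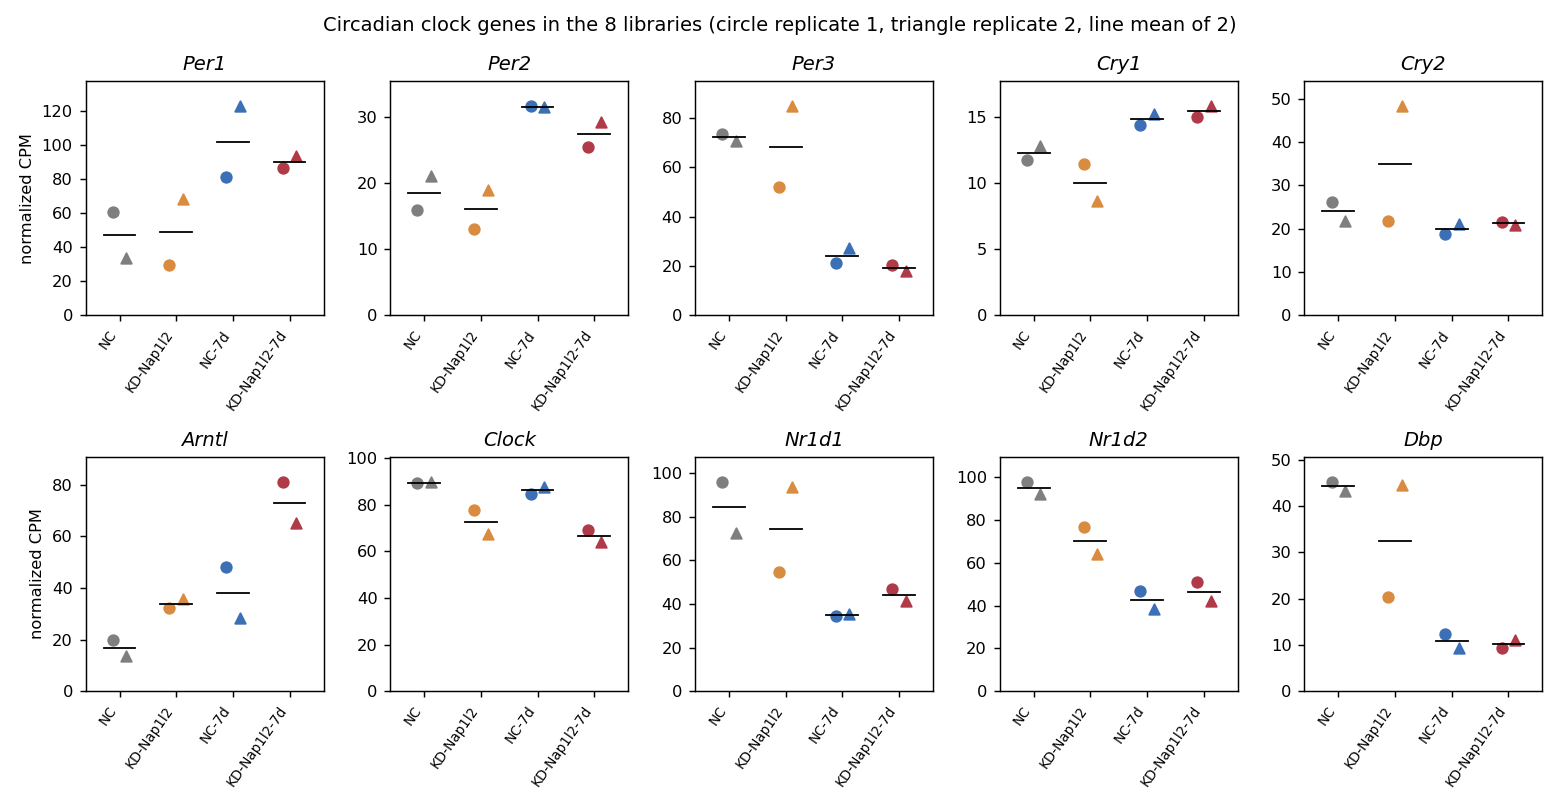
Normalized CPM (counts scaled to library size) of each clock gene in the 8 libraries, with a circle for replicate 1, a triangle for replicate 2 and a line at the mean of the 2. *Dbp* and *Per3* are lower in every day 7 library than in every day 0 library, and *Arntl* is highest in the KD-Nap1l2-7d libraries, at 81.2 and 65.1.

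*Dbp* encodes a PAR bZIP transcription factor and is a direct output of the loop. Its level was 45.2 and 43.2 CPM (counts scaled to library size by TMM) in NC, 20.3 and 44.5 in KD-Nap1l2, 12.3 and 9.3 in NC-7d and 9.23 and 11 in KD-Nap1l2-7d. All 4 day 7 libraries lay below all 4 day 0 libraries, and KD-Nap1l2 replicate 1 lay between the other day 0 libraries and those of day 7. The share of all genes that separate the days over all 8 libraries was not counted, for *Dbp* or the members below. The log2 fold change was -2.04 ± 0.342 (SE, adjusted p = 0.0133) in NC-7d against NC and -1.68 ± 0.342 (adjusted p = 0.0191) in KD-Nap1l2-7d against KD-Nap1l2. Leaving out KD-Nap1l2 replicate 1 gave -2.14 for the second and leaving out replicate 2 gave -1. Over all fits that left out 1 library, the first ran from -2.25 to -1.85 and the second from -2.14 to -1. Under each label, some of these fits lost the call. *Dbp* shares 539 exon bases with *Sphk2* on the opposite strand, the strandedness of the libraries is not given, and its counts were not whole in any of the 8 libraries. *Sphk2* itself had 445.97 to 660.17 counts per library, with higher counts in KD-Nap1l2-7d than in NC, while *Dbp* had 842.54 at most.

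*Per3*, a period gene that is a weaker repressor than its relatives, was the other strong fall. It stood at 73.6 and 70.5 CPM in NC, 52 and 84.7 in KD-Nap1l2, 21.3 and 27.2 in NC-7d and 20.4 and 17.9 in KD-Nap1l2-7d. No day 7 library reached any day 0 library. The log2 fold change was -1.57 ± 0.234 (adjusted p = 0.00879) under the NC label and -1.84 ± 0.238 (adjusted p = 0.00378) under the KD-Nap1l2 label.

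*Per1* and *Per2*, the period genes that answer to glucocorticoids, went the other way from *Per3*. *Per2* was at 15.9 and 21.1 CPM in NC, 13 and 19 in KD-Nap1l2, 31.6 and 31.4 in NC-7d and 25.5 and 29.2 in KD-Nap1l2-7d. Its log2 fold change was 0.77 ± 0.213 (adjusted p = 0.0692) under the NC label and 0.78 ± 0.215 (adjusted p = 0.0499) under the KD-Nap1l2 label. These are nearly equal sizes on either side of the threshold. The call under the KD-Nap1l2 label held in 3 of 8 other settings and in 1 of 8 fits that left out a library, the one without KD-Nap1l2 replicate 2 (1.08). Leaving out replicate 1 gave 0.52 (adjusted p = 0.122). Under the NC label DESeq2's Wald test called *Per2* (adjusted p = 0.0283). *Per1* was at 60.8 and 33.6 CPM in NC, 29.8 and 68.4 in KD-Nap1l2, 81.1 and 123 in NC-7d and 86.5 and 93.7 in KD-Nap1l2-7d. The day 7 libraries were all above those of day 0, but the replicates of NC, of KD-Nap1l2 and of NC-7d were far apart, and neither difference passed by edgeR (log2 fold change 1.11 ± 0.412 and 0.88 ± 0.41, adjusted p = 0.148 and 0.188). DESeq2 called the first (adjusted p = 0.0278). Leaving out KD-Nap1l2 replicate 1 gave 0.4 for the second, and leaving out replicate 2 gave 1.6.

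The immediate early gene *Egr1* was uneven between the same replicates. It stood at 699 and 217 CPM in NC, 97.8 and 175 in KD-Nap1l2, 104 and 814 in NC-7d and 262 and 171 in KD-Nap1l2-7d. The replicate with the higher *Egr1* also had the higher *Per1* in NC, KD-Nap1l2 and NC-7d, and the lower in KD-Nap1l2-7d. The part of serum response in the *Per1* values was not tested.

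*Cry1* and *Cry2* encode the cryptochromes, the main partners of PER in repression. *Cry1* was at 11.7 and 12.8 CPM in NC, 11.4 and 8.61 in KD-Nap1l2, 14.4 and 15.2 in NC-7d and 15 and 15.8 in KD-Nap1l2-7d, a log2 difference of 0.28 ± 0.181 (adjusted p = 0.388) and 0.62 ± 0.182 (adjusted p = 0.0595). The day 7 libraries were above every day 0 library by a small margin. Under the KD-Nap1l2 label *Cry1* was 0.84 and passed without KD-Nap1l2 replicate 1 (adjusted p = 0.0267), and it was 0.43 without replicate 2. *Cry2* was at 26.2 and 21.8 CPM in NC, 21.7 and 48.3 in KD-Nap1l2, 18.8 and 21.1 in NC-7d and 21.6 and 20.9 in KD-Nap1l2-7d. A single library, KD-Nap1l2 replicate 2, set *Cry2* apart, and the log2 differences of -0.27 ± 0.324 and -0.72 ± 0.323 did not pass (adjusted p = 0.663 and 0.174). Without KD-Nap1l2 replicate 2, the second was -0.03. Without replicate 1, it was -1.19 and passed (adjusted p = 0.0072). *Cry2* shares 295 exon bases with a transcript on the opposite strand.

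*Arntl* was the member that rose most by fold in both comparisons among those called. Its level was 19.8 and 13.7 CPM in NC, 32.3 and 35.6 in KD-Nap1l2, 48 and 28.2 in NC-7d and 81.2 and 65.1 in KD-Nap1l2-7d. Within each label the day 7 libraries lay above those of day 0, and NC-7d replicate 2, at 28.2, was below both KD-Nap1l2 libraries. The log2 fold change was 1.18 ± 0.277 (adjusted p = 0.0402) and 1.11 ± 0.271 (adjusted p = 0.034). Over the 8 fits that left out 1 library, the first ran from 0.75 to 1.52 and kept its call in 3. Its lowest value came from the fit lacking NC-7d replicate 1. The first call was also lost with only the libraries compared (adjusted p = 0.0909). The second ran from 0.94 to 1.25 over the 8 fits and kept its call in 4. The second call was lost when KD-Nap1l2 replicate 1 (1.04) or replicate 2 (1.18) was dropped. Dropping either KD-Nap1l2-7d library lost it too. *Arntl* shares 33 exon bases with an antisense gene, which was not analysed here. *Clock*, which encodes its binding partner, stayed within a narrow range. It was at 89.2 and 89.8 CPM in NC, 77.7 and 67.3 in KD-Nap1l2, 84.8 and 87.5 in NC-7d and 69.1 and 64.1 in KD-Nap1l2-7d. Its log2 difference with induction was -0.06 ± 0.119 (adjusted p = 0.816) and -0.12 ± 0.119 (adjusted p = 0.521). The second ran from -0.221 to -0.0146 over the fits that left out 1 library.

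*Nr1d1* and *Nr1d2* encode the nuclear receptors REV-ERBα and REV-ERBβ, which repress *Arntl*. *Nr1d1* was at 96 and 72.6 CPM in NC, 54.8 and 93.6 in KD-Nap1l2, 34.6 and 35.5 in NC-7d and 46.7 and 41.3 in KD-Nap1l2-7d. Its log2 fold change was -1.27 ± 0.25 (adjusted p = 0.0231) under the NC label. It ran from -1.45 to -1.05 over the 8 fits that left out 1 library, and most of these lost the call. Under the KD-Nap1l2 label it was -0.75 ± 0.247, which did not pass (adjusted p = 0.0809). That difference passed with DESeq2 (adjusted p = 0.0267) and without KD-Nap1l2 replicate 1 (-1.09, adjusted p = 0.0126), and it was -0.31 without replicate 2. *Nr1d2* was at 97.9 and 92.3 CPM in NC, 76.6 and 64.1 in KD-Nap1l2, 47 and 38.3 in NC-7d and 51 and 42 in KD-Nap1l2-7d. Its log2 fold change was -1.16 ± 0.162 (adjusted p = 0.00732) and -0.6 ± 0.161 (adjusted p = 0.0448). The second call was lost with limma on either scale, with only the libraries compared and in 6 of 8 fits that left out a library, among them those without KD-Nap1l2 replicate 1 (-0.46) or replicate 2 (-0.72). For both receptors every day 7 library was below every day 0 library. *Nr1d1* shares 263 exon bases with *Thra* on the opposite strand, which had 4819.03 to 7821.27 counts per library. *Thra* had 5446.07 and 5449.83 counts in NC-7d against 6141.64 and 5345.43 in NC. It had 5028.02 and 4819.03 in KD-Nap1l2-7d against 5518.61 and 7821.27 in KD-Nap1l2. Like *Nr1d1*, it was higher in KD-Nap1l2 replicate 2 than in replicate 1. The part of *Thra* in the *Nr1d1* counts was not tested.

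**Figure D3:**
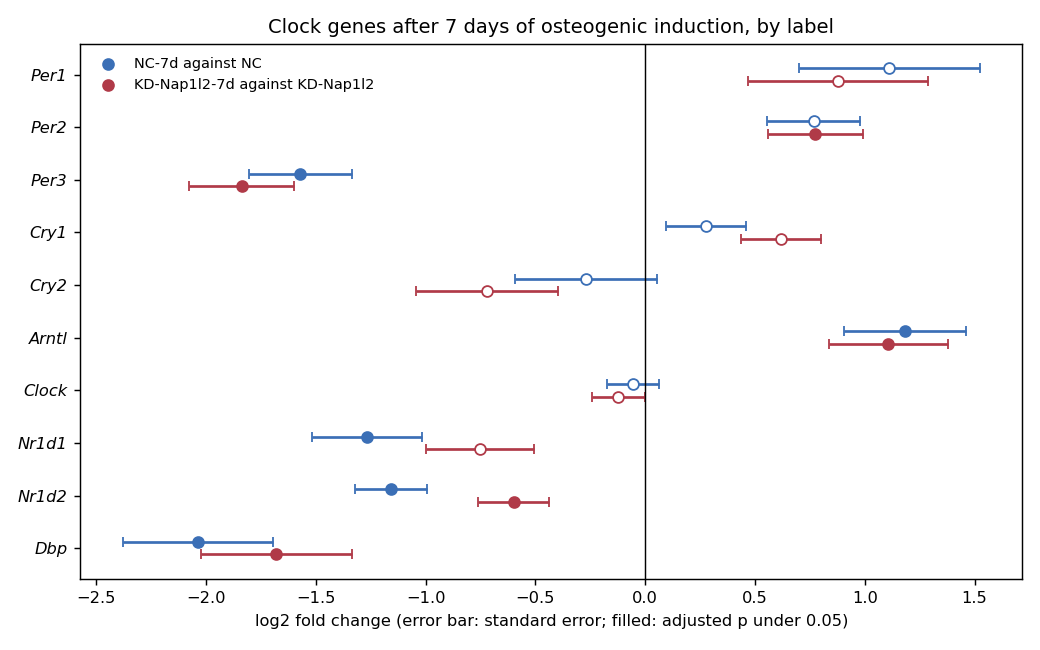
Log2 fold change of each clock gene after 7 days of induction under the NC label (blue) and the KD-Nap1l2 label (red), with bars for the standard error and filled points for an adjusted p under 0.05. *Per3* and *Dbp* lie below -1.5 under both labels, *Arntl* lies above 1 under both, and *Clock* lies near 0.

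These single comparisons depended on individual libraries. The count of 5 called under the NC label went to 0 without NC replicate 1 and to 3 without NC replicate 2, NC-7d replicate 1, NC-7d replicate 2, KD-Nap1l2-7d replicate 1 or KD-Nap1l2-7d replicate 2. Under the KD-Nap1l2 label it went to 0 without KD-Nap1l2-7d replicate 2, to 1 without KD-Nap1l2-7d replicate 1 and to 3 without NC replicate 1, NC replicate 2 or KD-Nap1l2 replicate 2.

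The mean of both induction contrasts, a comparison added after their values had been seen, rests on 4 libraries a side. It called 8 of 10 members, 4 higher and 4 lower, where 25.5% of all genes tested were called, 12.8% as higher and 12.7% as lower. *Per3* fell 3.26-fold (log2 fold change -1.70 ± 0.167, adjusted p = 0.00058), *Dbp* 3.62-fold (-1.86 ± 0.242, adjusted p = 0.00176), *Nr1d1* 2.01-fold (-1.01 ± 0.176, adjusted p = 0.00603) and *Nr1d2* 1.84-fold (-0.88 ± 0.114, adjusted p = 0.00174). *Arntl* rose 2.21-fold (1.15 ± 0.194, adjusted p = 0.00533), *Per2* 1.71-fold (0.77 ± 0.152, adjusted p = 0.00954), *Per1* 1.99-fold (0.99 ± 0.291, adjusted p = 0.0404) and *Cry1* 1.36-fold (0.45 ± 0.128, adjusted p = 0.0378). *Cry2* (-0.49 ± 0.229, adjusted p = 0.149) and *Clock* (-0.09 ± 0.0842, adjusted p = 0.469) did not pass. *Per2*, *Per3*, *Arntl*, *Nr1d1*, *Nr1d2* and *Dbp* were called in each of the 8 fits that left out 1 library. *Per1* was called in 3 of them, at 0.76 to 1.35, and *Cry1* in 1, the fit without KD-Nap1l2 replicate 1, at 0.36 to 0.56 over the 8. With limma on log2(FPKM + 1) and log2(FPKM + 0.1), *Cry1* did not pass (adjusted p = 0.1 and 0.102). *Cry2* passed in the fit without KD-Nap1l2 replicate 1, at -0.73 (adjusted p = 0.00462), and ranged up to -0.15.

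Ratios within a library are free of the scaling between libraries. *Nr1d1* over *Arntl*, a repressor over the gene it represses, was 5.15 and 5.65 in NC, 1.8 and 2.76 in KD-Nap1l2, 0.767 and 1.33 in NC-7d and 0.61 and 0.671 in KD-Nap1l2-7d, as a ratio of FPKM. No group overlapped another. *Dbp* over *Arntl* was 4.16 and 5.72 in NC, 1.14 and 2.27 in KD-Nap1l2, 0.462 and 0.589 in NC-7d and 0.206 and 0.304 in KD-Nap1l2-7d, in the same order of groups. *Per1* over *Per3* split the days but not the labels, at 1.19 and 0.681 in NC and 0.842 and 1.21 in KD-Nap1l2, against 5.5 and 6.77 in NC-7d and 6.15 and 7.8 in KD-Nap1l2-7d. *Per2* over *Per3* and *Cry1* over *Cry2* also split the days but not the labels. *Clock* over *Arntl* overlapped between the days, at 0.738 and 0.577 in KD-Nap1l2 and 0.546 and 0.945 in NC-7d. All these ratios are built from the member levels already described and are no separate test. With 2 libraries a group, an exact permutation test of a single ratio between 2 groups cannot go below a two-sided p of 0.333, so the ratios are given as values.

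**Figure D4:**
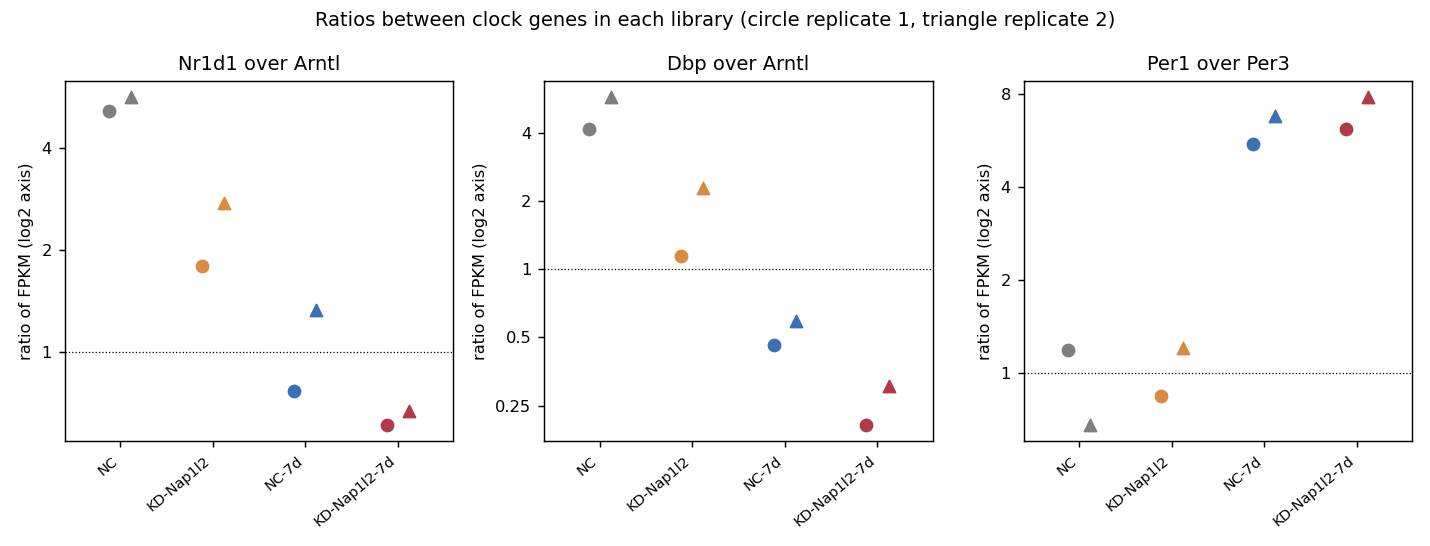
Ratios of FPKM between clock genes in each library (log2 axis), with a circle for replicate 1, a triangle for replicate 2 and a dotted line at 1. *Nr1d1* over *Arntl* goes from 5.15 and 5.65 in NC to 0.61 and 0.671 in KD-Nap1l2-7d, and *Per1* over *Per3* lies above 5 in the day 7 libraries only.

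The labels were then compared on each day, which asks whether the shRNA went with a difference in the clock genes. At day 0, 0 of 10 members were called in KD-Nap1l2 against NC, where 0.0817% of all genes were, and 3 members had an unadjusted p under 0.05, where 13.7% of genes did. DESeq2's Wald test called 1 member, *Arntl*. At day 7, 0 members were called in KD-Nap1l2-7d against NC-7d, and 2 had an unadjusted p under 0.05. The background there was 0 genes, with 7.85% of genes at an unadjusted p under 0.05, and DESeq2 called 0 members.

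The largest difference between labels was in *Arntl*, on both days. It was 2.03-fold higher in KD-Nap1l2 than in NC by the fitted values (log2 fold change 1.02 ± 0.277, adjusted p = 0.174) and 1.92-fold higher in KD-Nap1l2-7d than in NC-7d (0.94 ± 0.27, adjusted p = 0.504). On each day both libraries labelled KD-Nap1l2 lay above both labelled NC, as 43.2% and 42.1% of all genes did in one direction or the other. By DESeq2 the adjusted p at day 0 was 0.0158. Averaged over both days, a comparison also added after the values were seen, the log2 fold change was 0.98 ± 0.193 (adjusted p = 0.108, place 116 of 13470 by p), and 0 members were called, where 0.0594% of genes were. It was 0.82 to 1.2 over the fits that left out 1 library. It passed with DESeq2 (adjusted p = 0.000213) and with no filter on low counts (adjusted p = 0.0419), and in none of the other 5 alternatives that kept all 8 libraries.

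*Clock* was lower under the KD-Nap1l2 label on both days, without overlap, at a log2 difference of -0.30 ± 0.119 (adjusted p = 0.317) and -0.37 ± 0.119 (adjusted p = 0.519). The mean of both was -0.34 ± 0.0842 (adjusted p = 0.146). It passed only in the fit without KD-Nap1l2 replicate 1, at -0.39 (adjusted p = 0.0476). *Nr1d2* was lower in KD-Nap1l2 than in NC at day 0 by 0.43 on the log2 scale (log2 difference -0.43 ± 0.159, adjusted p = 0.286) and not at day 7 (0.12 ± 0.161, adjusted p = 0.915). The remaining 7 members had adjusted p-values of at least 0.51 on day 0. *Cry2*, at a log2 difference of 0.54 ± 0.322, was -0.15 when KD-Nap1l2 replicate 2 was left out. When KD-Nap1l2 replicate 1 was left out, it was 1.01 and passed (adjusted p = 0.0319). *Dbp* at day 0, at -0.45 ± 0.324, ranged from -1.12 to 0.01 over the fits that left out 1 library, and *Per1* from -0.66 to 0.55.

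**Figure D5:**
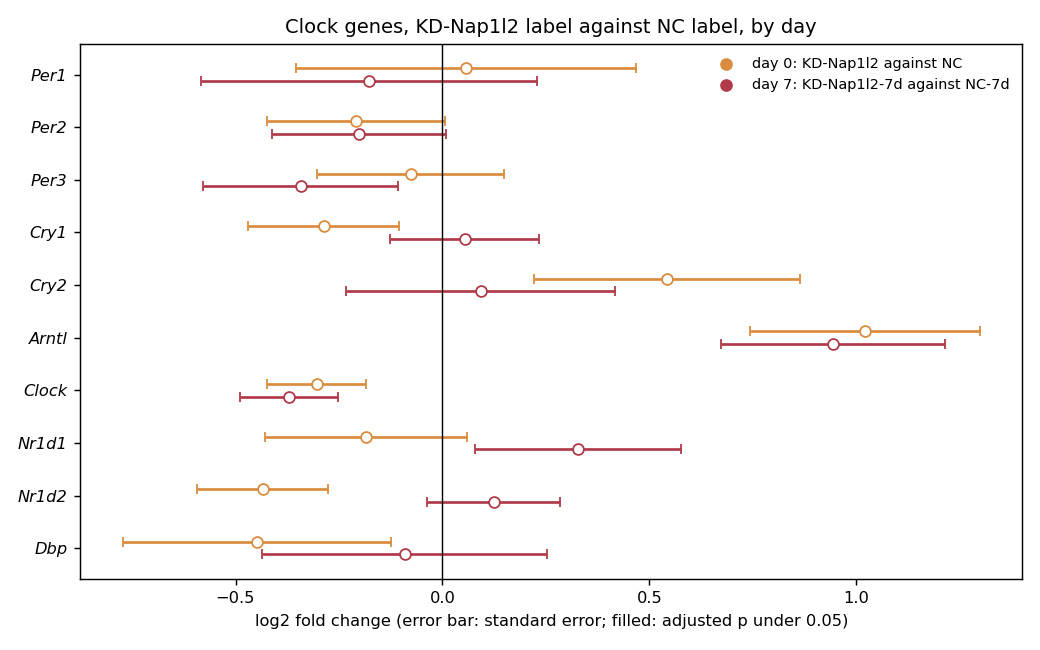
Log2 fold change of each clock gene between the KD-Nap1l2 and NC labels at day 0 (orange) and day 7 (red), with bars for the standard error and open points where the adjusted p was not under 0.05. No point is filled, *Arntl* lies near 1 on both days and *Clock* lies at -0.3 and -0.37.

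Whether induction differed between the labels was tested as an interaction, and 0 of 10 members were called, where 0 of all genes were and 7.04% had an unadjusted p under 0.05. *Nr1d2* was the 1 member with an unadjusted p under 0.05. Its fall was smaller under the KD-Nap1l2 label by 0.56 ± 0.226 on the log2 scale (adjusted p = 0.691). *Nr1d1* pointed the same way at 0.51 ± 0.349 (adjusted p = 0.805), and *Arntl* (-0.08 ± 0.383) and *Per2* (0.01 ± 0.3) were near 0.

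KD-Nap1l2 replicate 2 differed from replicate 1 in both directions. Beside *Cry2*, *Dbp*, *Per1*, *Per2*, *Per3* and *Nr1d1*, the repressor genes *Bhlhe40* (42.4 and 222 CPM), *Bhlhe41* (18.3 and 65.6 CPM) and *Ciart* (3.22 and 11.3 CPM) were higher in replicate 2. So were *Gys1*, for glycogen synthase (51.9 and 272 CPM), and the collagen gene *Col1a1* (3980 and 6500 CPM). *Arntl*, at 32.3 and 35.6 CPM, differed little between these libraries, and *Cry1*, *Clock* and *Nr1d2* were lower in replicate 2. The glucocorticoid-induced genes summed to 585 FPKM in replicate 1 and 2040 in replicate 2, most of it from the metallothioneins *Mt1* (234.23 and 1008.01 FPKM) and *Mt2* (136.76 and 750.67 FPKM), whereas *Fkbp5* (10 and 9.58 CPM) did not differ in this way. The part of these differences in the values of the clock genes was not tested.

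Other parts of the loop were compared in the same way, where 8.21% and 14.2% of all genes were called in NC-7d against NC and KD-Nap1l2-7d against KD-Nap1l2. Of 13 further transcription factors of the clock, 11 could be tested. None was called in NC-7d against NC (5 had an unadjusted p under 0.05), and 3 were in KD-Nap1l2-7d against KD-Nap1l2, of which 2 are described. *Cipc*, which encodes a CLOCK-interacting repressor, rose 1.73-fold (log2 fold change 0.79 ± 0.196, adjusted p = 0.0358). *Tef*, a relative of *Dbp* and the most abundant of this list at 46.7 FPKM, fell 1.49-fold (-0.58 ± 0.129, adjusted p = 0.0258). *Bhlhe40*, second at 26.1 FPKM, had a log2 difference of -1.08 ± 0.607 in NC-7d against NC (adjusted p = 0.321).

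Of 12 clock protein kinases and ubiquitin pathway genes, 1 was called in NC-7d against NC and 0 in KD-Nap1l2-7d against KD-Nap1l2 (2 at an unadjusted p under 0.05). *Usp2*, a deubiquitinase gene with rhythmic expression in many tissues, rose 1.61-fold under the NC label (log2 fold change 0.69 ± 0.157, adjusted p = 0.0365). *Csnk2b* and *Csnk1d* were the most abundant, at 117 and 50.8 FPKM. Of 8 output genes, *Por*, for cytochrome P450 reductase, rose 1.84-fold under the NC label (0.88 ± 0.172, adjusted p = 0.0221), and 0 were called under the KD-Nap1l2 label, with 1 at an unadjusted p under 0.05. *Tspo* and *Nampt* were the most abundant, at 215 and 54.3 FPKM. In the comparisons of labels, 0 genes of these 3 lists were called on either day, and at most 3 of a list had an unadjusted p under 0.05.

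Genes known to be induced by glucocorticoids moved with the day. Of 13 tested, 7 were called higher in NC-7d against NC and 8 in KD-Nap1l2-7d against KD-Nap1l2, and 0 were called lower. All 13 differences were positive in both, with medians of 2.56 and 2.52 on the log2 scale. Of all genes tested, 4.83% and 6.84% were called higher, and 3.38% and 7.36% lower. *Fkbp5* rose 32-fold and 40.2-fold (log2 fold change 5 ± 0.368 and 5.33 ± 0.376, adjusted p = 0.000694 and 0.000483), and *Tsc22d3* 9.34-fold and 10.6-fold (adjusted p = 0.000944 and 0.00059). *Zbtb16*, *Sgk1*, *Errfi1*, *Pdk4* and *Glul* rose under both labels as well, and *Klf9* rose under the KD-Nap1l2 label (2.45-fold, adjusted p = 0.0209). The summed level of all 13 was 585 to 2040 FPKM in the day 0 libraries and 3550 to 4930 in those of day 7. The metallothioneins *Mt1* and *Mt2*, with the highest means of the list at 986 and 886 FPKM, weigh most in this sum. Neither was called under either label alone. In the mean of both inductions all 13 genes of the list were called higher, these 2 among them, where 12.8% of all genes were. Of 10 immediate early genes, 0 were called under the NC label (1 at an unadjusted p under 0.05) and 2, *Atf3* and *Myc*, rose under the KD-Nap1l2 label. Of 8 genes of dividing cells, 0 were called under the NC label (also 0 at an unadjusted p under 0.05), and *Mki67*, *Top2a* and *Bub1* fell under the KD-Nap1l2 label, by 2.38-fold, 2.15-fold and 2.1-fold. Under the NC label *Mki67* was at 323 and 343 CPM in NC and 141 and 310 in NC-7d, so for this gene NC-7d replicate 2 lay near day 0. The summed level of the mesenchymal markers also moved with the day. It was 6050 to 8230 FPKM in the day 0 libraries and 4090 to 5390 in those of day 7, with *Thy1* lower at day 7 under both labels and *Col1a1* and *Col1a2* lower under the KD-Nap1l2 label. In each of these comparisons 4 of the 9 markers had a positive difference, and in the mean of both 4 fell and 1, *Eng*, rose (1.27-fold, adjusted p = 0.0303). The part of dexamethasone, serum and cell division in the values of the clock genes was not tested, and fewer cells of a type cannot be told apart from less RNA per cell in bulk RNA.

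Among the members, the closest patterns over the 8 libraries were those of *Nr1d1* with *Nr1d2* and of *Per3* with *Dbp*, each with a root mean square distance of 0.305 in centred log2 CPM, followed by *Per2* with *Cry1* at 0.315. *Dbp* had the widest spread, with an SD of 1.04 in log2 CPM over the 8 libraries, and *Clock* the narrowest, at 0.199. Of the 11279 genes whose mean reached 50 normalized counts, *Alcam* was nearest to *Arntl*, at a distance of 0.087. It had 19.6 and 15.9 CPM in NC, 33.9 and 38.4 in KD-Nap1l2, 56.5 and 28.5 in NC-7d and 82.2 and 67.7 in KD-Nap1l2-7d. *Gspt2* (0.173) and *Hapln4* (0.214) were next. Nearest to *Dbp* were *Flrt3* (0.221), *Gpr162* (0.221) and *Sdc3* (0.226), all further off than *Alcam* was from *Arntl*. With 8 libraries in 4 groups, many genes can share a pattern, and these distances are a description.

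At the transcript level, *Nr1d1* and *Nr1d2* each had 1 transcript in the table, and 1 transcript held 99.6% of the *Cry2* counts and 86.3% of those of *Dbp* summed over the libraries. The share of the main *Dbp* transcript ran from 82.2% to 90.1%. The other members split their counts less steadily. The main *Arntl* transcript held 58.7% of the counts in all and from 29.8% to 86% in single libraries, and the main *Per1* transcript 81% in all and from 50.1% to 94.3%. Of the 3 *Per3* transcripts with at least 10% of the counts, 2 were estimated at 0% in a library and at over 50% in another, so changes of single transcripts of these genes were not tested.

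The members lie at separate loci in GRCm38, and 2 pairs share a chromosome. *Dbp* is at chr7:45705088-45710203 on the plus strand and *Arntl* at chr7:113207465-113314126 on the plus strand. *Nr1d1* is at chr11:98767932-98775333 on the minus strand and *Per1* at chr11:69095217-69109960 on the plus strand. *Per3* is at chr4:151003652-151044665, *Nr1d2* at chr14:18204054-18239127, *Cry1* at chr10:85131700-85185064, *Cry2* at chr2:92403646-92434043, *Clock* at chr5:76209868-76304792 and *Per2* at chr1:91415982-91459324, all on the minus strand. By these annotations *Per1*, *Per2*, *Cry1* and *Nr1d2* overlap no other gene.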

How the data were processed

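8 libraries, 2 from each of 4 groups of C3H10T1/2 cells were analysed. The authors deposited expected counts per gene and per transcript (estimated counts, not whole for every gene) and FPKM, scaled by the authors to length and library. The submitters' processing notes name Bowtie2, BWA, RSEM and GRCm38.p6, without versions. Library construction and sequencing were done by BGI. A deposited table of the authors' own comparisons (fold changes, p-values) was not used.

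Expected counts were rounded, scaled by TMM and filtered with filterByExpr, which kept 13470 of 18605 genes, and 1 edgeR 4.0.16 model over the 8 libraries (R 4.3.3) gave the contrasts (quasi-likelihood test, Benjamini-Hochberg over all genes tested, called at an adjusted p under 0.05). Standard errors were taken as |log2 fold change| over the root of the F statistic. They hold the dispersion estimated between libraries. A count of 0 to 3 in a library is at the floor, which covers counting error only. On simulated data for NC-7d against NC with 13288 genes, edgeR found 83 of 100 genes simulated with a 4-fold change, 42 of 100 with a 2-fold change and 8 unchanged genes, and DESeq2 found 86, 57 and 38. Alternatives were DESeq2 1.42.0, RLE size factors, other filters (none, or at least 10 counts in every library), limma 3.58.1 on log2(FPKM + 1) and log2(FPKM + 0.1), a replicate block, a fit of only the groups compared, and leaving out each library. Means of paired contrasts were added after seeing the data.

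The members and lists were chosen with earlier results of these data known. The rule for named genes took the 10 members, from each list the called genes and the 2 with the highest mean FPKM, and the 3 genes nearest to *Arntl* and *Dbp*. Some that it took, most of them called only in the added means or markers of other cell types, are not described. *Bhlhe41*, *Ciart*, *Gys1* and the overlapping genes *Sphk2*, *Thra* and *Camta1* were named after their values were seen. The lists were clock transcription factors, clock kinases and ubiquitin ligases, clock outputs, glucocorticoid-induced genes, immediate early genes, dividing cell genes, and mesenchymal, immune, endothelial and epithelial markers. Promoters came from RefSeq (GRCm38.p6), loci from GENCODE vM21. Figures were drawn with matplotlib 3.10.9 in Python 3.11.15. The values of 1 called gene among the further transcription factors of the clock are not reported here.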

Additional observations from a re-analysis of the deposited data

How the results depend on the processing

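For the 10 members over the 7 comparisons, 507 of 530 log2 fold changes under other settings of all libraries kept their direction and their side of the threshold, 13 no longer passed, 7 came to pass and 3 changed sign. The sign changes were of values near 0, *Per1* at day 0 under the replicate block (-0.0301) and *Per2* in the interaction with limma on log2(FPKM + 1) (-0.0231) and log2(FPKM + 0.1) (-0.00547). Most of the members' results were not called in the main fit and so had no call to lose. In the 8 fits without 1 library, 33 of 560 log2 fold changes changed sign, and calls were lost as counted by comparison below. The members whose sign changed there were, between labels at day 0, *Per1* (-0.66 to 0.55), *Per2* (-0.51 to 0.0428), *Per3* (-0.47 to 0.23), *Cry2* (-0.15 to 1.01), *Nr1d1* (-0.62 to 0.15) and *Dbp* (-1.12 to 0.0122). At day 7 they were *Per1* (-0.45 to 0.15), *Nr1d2* (-0.0226 to 0.28) and *Dbp* (-0.28 to 0.12). In the interaction they were *Per1* (-0.72 to 0.48), *Per2* (-0.24 to 0.31), *Per3* (-0.58 to 0.13), *Cry2* (-0.92 to 0.24), *Arntl* (-0.41 to 0.36), *Clock* (-0.17 to 0.04) and *Dbp* (-0.10 to 1.03), and in the mean over both days *Per1* (-0.42 to 0.18), *Cry2* (-0.0279 to 0.55) and *Nr1d1* (-0.15 to 0.24). No induction contrast changed the sign of a member under any setting run.

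Members called under the NC label in induction were 5, 7 with DESeq2, and 0 to 6 without 1 library. Under the KD-Nap1l2 label they were 5, 6 with DESeq2, 3 with limma on either scale or with only the libraries compared, and 0 to 5 without 1 library. In the mean of both inductions they were 8, and 6 to 8 without 1 library. Between labels at day 0 they were 0, 1 with DESeq2 and 0 to 1 without 1 library. In the mean over both days they were 0, 1 with DESeq2 or with no filter, and 0 to 2 without 1 library. With 2 libraries in a group, leaving out 1 assumes that the lone library varies like the other groups.

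Genes called between labels at day 0 were 11, 460 with DESeq2, 160 with no filter on low counts, 4 with at least 10 counts in every library, 4 with the replicate block, 33 and 18 with limma on log2(FPKM + 1) and log2(FPKM + 0.1), 0 with only the libraries compared, and 0 to 562 without 1 library. At day 7 they were 0, 79 with DESeq2 and 0 to 1 without 1 library. In the interaction they were 0, 98 with DESeq2, 1 with no filter and 0 to 19 without 1 library. In the mean over both days they were 8, 476 with DESeq2, 131 with no filter, 0 with at least 10 counts in every library, 2 with the replicate block, 22 with limma on log2(FPKM + 1) and 0 to 570 without 1 library. Without 1 library, induction gave 122 to 1490 genes under the NC label, 305 to 2218 under the KD-Nap1l2 label and 1684 to 3918 in their mean. The cause of these changes was not tested.

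The libraries shared replicate numbers, but deviations of same-numbered libraries correlated by only -0.0612 to 0.104, so the numbers were not taken as pairs. With the replicate block, 6 members were called in induction under the NC label, 5 under the KD-Nap1l2 label and 6 in the mean of both. *Per2* came to pass under the NC label (adjusted p = 0.0434), and *Per1* and *Cry1* no longer passed in the mean (adjusted p = 0.0533 and 0.0531). Depth did not limit the members, which had at least 151 counts in every library.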
